A study of Mus musculus with 36 samples.

Results

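Adipokines are proteins that fat cells secrete and through which adipose tissue signals to other organs. The 6 genes described here encode adiponectin (Adipoq), leptin (Lep), resistin (Retn), adipsin or complement factor D (Cfd), retinol binding protein 4 (Rbp4) and nicotinamide phosphoribosyltransferase, also called visfatin (Nampt). They were chosen by symbol, and each matched 1 Ensembl gene among the 54347 genes of the count table. All 6 were tested, since each passed the filter on low values. The filter asked for more than 1 CPM (counts scaled to library size) in 6 or more of 36 libraries, and 15340 genes passed it. Leptin, with 6 such libraries, passed at the limit.

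The study asked whether the ketone body β-hydroxybutyrate (βOHB, written bOHB in the labels) acts on gene expression as butyrate does, from which it differs by a hydroxyl group on the beta carbon. Primary adipocytes, macrophages, myotubes and hepatocytes of male mice were kept for 6 h with PBS (the control), with βOHB at 5 mM or with butyrate at 5 mM. The labels give the strain as C57Bl/6 for all samples, and the study's methods name C57BL/6NHsd for the hepatocytes. There were 3 RNA-seq libraries in each of the 12 groups and 18366289 to 23221473 estimated counts per library. The adipocytes were differentiated in culture from stromal vascular cells of inguinal fat pooled from several mice. The macrophages were grown from bone marrow in L929-conditioned medium, the myotubes were differentiated from hindlimb myoblasts, and the hepatocytes came from livers perfused with collagenase. The labels do not say whether the 3 libraries of a group came from separate cultures or mice, so p-values measure the spread between these libraries, which may be technical. In cultures of mixed cells, fewer cells of a type and less RNA per cell cannot be told apart. Summed markers of each cell type were highest in the libraries of that label, with 12 adipocyte markers at 15490 to 21480 CPM in the adipocyte libraries and at most 1598 CPM elsewhere. The adipocyte cultures also held 6 preadipocyte or fibroblast markers at 5310 to 9135 CPM and 7 macrophage markers at 145.5 to 200.3 CPM.

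As background, adiponectin, leptin, resistin and adipsin are products of differentiated fat cells in mice, and adiponectin and adipsin transcripts appear as precursors turn into fat cells. Adipsin is the serine protease that cleaves factor B in the alternative complement pathway. RBP4 carries retinol in blood and comes largely from the liver. NAMPT is the rate-limiting enzyme of NAD salvage in most cells and is also found outside the cell.

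The sequences before the start of these genes differed in CG dinucleotides, and 5 of them are shown because they span the range from windows without CG to windows rich in it. RefSeq windows of 300 bases (GRCm38.p6, 250 bases before to 50 after the start) were available for all 6 genes. The 150 bases before each start follow, 5′ to 3′ on the strand of the gene, with CG dinucleotides in capitals.
Adipoq (chr16:23146386-23146535, plus strand): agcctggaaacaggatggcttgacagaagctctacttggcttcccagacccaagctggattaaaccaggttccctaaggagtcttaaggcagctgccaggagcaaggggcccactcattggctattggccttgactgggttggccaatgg
Retn (chr8:3655620-3655769, plus strand): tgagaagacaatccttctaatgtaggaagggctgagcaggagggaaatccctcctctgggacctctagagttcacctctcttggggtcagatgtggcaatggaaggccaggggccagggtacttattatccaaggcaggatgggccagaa
Cfd (chr10:79890703-79890852, plus strand): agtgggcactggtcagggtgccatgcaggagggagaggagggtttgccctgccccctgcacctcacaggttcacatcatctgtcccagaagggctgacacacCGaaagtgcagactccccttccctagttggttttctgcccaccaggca
Rbp4, downstream start (chr19:38124812-38124961, minus strand): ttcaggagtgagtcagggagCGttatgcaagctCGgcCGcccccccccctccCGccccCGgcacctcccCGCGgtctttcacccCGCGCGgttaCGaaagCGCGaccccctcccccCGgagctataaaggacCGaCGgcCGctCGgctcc
Nampt (chr12:32820185-32820334, plus strand): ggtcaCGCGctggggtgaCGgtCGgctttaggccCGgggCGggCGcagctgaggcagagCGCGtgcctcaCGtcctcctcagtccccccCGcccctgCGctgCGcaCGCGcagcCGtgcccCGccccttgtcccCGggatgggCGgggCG

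Over the whole windows, Adipoq had 0 CG dinucleotides, Retn and Cfd had 2 each, and Nampt had 36, against a median of 7 in 32851 promoter windows of that length. Rbp4 has 2 RefSeq starts, with 5 CG in the upstream window and 40 in the downstream window, and Lep had 19. Both strands were searched for the TATA box TATAAA, for CCAAT, for the GC box GGGCGG, for the C/EBP palindrome TTGCGCAA and for the PPAR direct repeat, in which AGGTCA recurs after any 1 base. CCAAT, present in 37.4% of all windows, began 34, 27 and 7 bases before the Adipoq start and 162 bases before the upstream Rbp4 start. GGGCGG, present in 35.7% of windows, matched 5 times in the Nampt window 2 times in the downstream Rbp4 window and 1 time in the Lep window. TATAAA, present in 13.6% of windows, began 28 bases before the downstream Rbp4 start, and TTGCGCAA, present in 0.183% of windows, began 55 bases before the Lep start. The PPAR repeat, in 0.0396% of windows, matched none of the 7 windows, and a match or its absence says only which letters are in this window.

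In control cells, Adipoq, Retn and Cfd were fat cell transcripts, Lep was barely detected, Rbp4 was highest in hepatocytes and Nampt was measured in every library. Adipoq (ENSMUSG00000022878, chr16:23146536-23158028) was at 678, 838 and 747 CPM in the control adipocytes. Across the 27 libraries of the other cell types it reached at most 0.254 CPM and was at 0 in 17. Its levels in adipocytes and in any other cell type were thus far apart and did not overlap.

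Cfd (ENSMUSG00000061780, chr10:79890853-79892655) was the most abundant of the 6 in adipocytes, at 1058, 1369 and 1214 CPM. Elsewhere it was at most 0.254 CPM, with 20 of 27 libraries at 0. Retn (ENSMUSG00000012705, chr8:3655770-3660110) was at 226, 266 and 242 CPM in the control adipocytes and at most 0.127 CPM elsewhere, where 25 of 27 libraries held no count. Macrophage control library 1 carried the highest value of all 3 genes outside adipocytes, with 6 counts of Adipoq, 6 of Cfd and 3 of Retn. A count of 0 in a group of 3 libraries allows up to 0.0415 to 0.0611 CPM, from 3 counts over the group and counting error alone.

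Lep (ENSMUSG00000059201, chr6:29060220-29073877) was at 0.476, 1.55 and 0.886 CPM in the control adipocytes, a sum of 68 counts. In the other cell types 22 of 27 libraries held no Lep count, and the highest value was 0.0918 CPM. The leptin transcript was therefore detected in these cultured inguinal adipocytes at a level close to the filter, and its replicate spread was wide.

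Rbp4 (ENSMUSG00000024990, chr19:38116629-38125281, minus strand) was at 1379, 1321 and 1142 CPM in control hepatocytes and at 453, 323 and 333 CPM in control adipocytes. The hepatocyte level was higher by 1.79 (SE 0.359) on the log2 scale (edgeR, adjusted p = 3.96e-05). Macrophages held 0.0433 to 0.252 CPM in the control, 0.0469 to 0.175 CPM after βOHB and 0.078 to 0.0869 CPM after butyrate, and myotube controls 0 to 0.0459 CPM.

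Nampt (ENSMUSG00000020572, chr12:32819545-32853349) was at 277, 295 and 261 CPM in control adipocytes, at 210, 203 and 208 CPM in macrophages, at 120, 125 and 126 CPM in hepatocytes and at 27.6, 26.6 and 28.6 CPM in myotubes. No pair of neighbours in this order overlapped. Adipocytes exceeded macrophages by 0.42 (SE 0.0661, adjusted p = 9.86e-07), macrophages exceeded hepatocytes by 0.74 (SE 0.0674, adjusted p = 1.42e-11), and myotubes lay below hepatocytes (log2 difference -2.16, SE 0.0732, adjusted p = 2.07e-22).

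Adipoq, Lep, Retn and Cfd passed the filter on low values only through the adipocyte libraries. Their difference between adipocytes and the other cell types is thus no separate result, and no count of differing genes is given. Among all tested genes, 77.5% differed between adipocytes and macrophages, 78.2% between adipocytes and myotubes and 81.1% between adipocytes and hepatocytes. The share was 82.2% for macrophages against myotubes, 82.1% for macrophages against hepatocytes and 86.6% for myotubes against hepatocytes. Cell type cannot be told apart from isolation, medium and culture here.

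Per kilobase of the longest transcript, the control adipocytes ranked Cfd first at 1317 ± 169 CPM per kb (SD, n = 3), then Adipoq at 584 ± 62.1, Rbp4 at 318 ± 62.0, Retn at 215 ± 17.7, Nampt at 61.4 ± 3.75 and Lep at 0.298 ± 0.166. Neighbours in this order did not overlap between libraries, and the order was the same with the mean transcript length or merged exons. In hepatocytes Rbp4 led at 1103 ± 106 CPM per kb, and in macrophages and myotubes Nampt led at 45.8 ± 0.741 and 6.1 ± 0.216 CPM per kb.

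**Figure D1:**
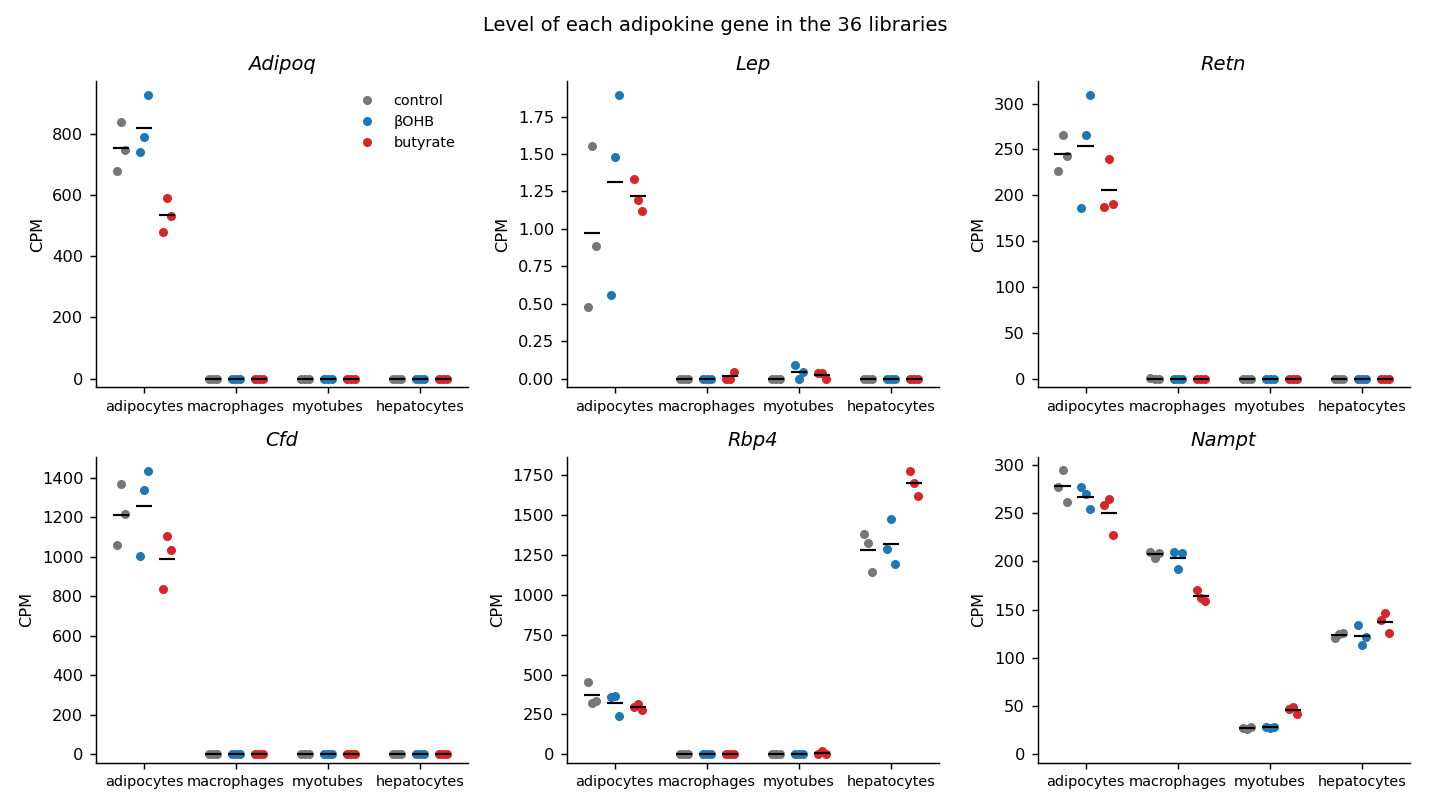
CPM (vertical axis, linear and of its own scale in each panel) of the 6 genes in every library, by cell type and treatment (grey control, blue βOHB, red butyrate), with the group mean as a black line. Adipoq, Lep, Retn and Cfd lie at or near 0 outside adipocytes, Rbp4 is highest in hepatocytes and Nampt is present in all 4 cell types.

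Over all 36 libraries, the log2 CPM of Adipoq followed that of Cfd (Pearson r = 0.9986) and Retn (r = 0.9981) most closely, then A530053G22Rik (r = 0.9967). Cfd and Retn had each other as nearest gene (r = 0.9988). Rbp4 was nearest to Hp (r = 0.9913), the gene of haptoglobin, then Cyp2e1 (r = 0.9908) and Aldh1a7 (r = 0.9891). Nampt was nearest to Cebpa (r = 0.9894), the gene of an adipogenic and hepatic transcription factor, then Xdh (r = 0.9813) and Peli2 (r = 0.9773). Lep was nearest to Gm48832 (r = 0.9827), A830018L16Rik (r = 0.9784) and C7 (r = 0.9749). These values describe 36 libraries that share 4 cell types, so they mainly follow differences between cell types.

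In adipocytes, the adiponectin transcript fell under butyrate, and none of the 6 was called under βOHB. Adipoq was at 480, 589 and 532 CPM after butyrate against 678, 838 and 747 CPM in the control, and the groups did not overlap. Adipoq fell by 29.3% (log2 fold change -0.50, SE 0.111, 95% interval -0.73 to -0.27, edgeR adjusted p = 0.000331). Nampt was at 259, 265 and 227 CPM against 277, 295 and 261 CPM and fell by 9.91% (log2 fold change -0.15, SE 0.0659, adjusted p = 0.0488). The Nampt groups overlapped, and 8 of 16 alternative analyses did not call it, with adjusted p from 0.0239 to 0.456. It was not called without control library 1 (log2 fold change -0.15, adjusted p = 0.0824), without control library 2 (-0.10, adjusted p = 0.225) or without butyrate library 3 (-0.086, adjusted p = 0.307). With library totals alone it was -0.061 (adjusted p = 0.456), where the median of all genes was 0.073.

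The other 4 genes did not pass the test in adipocytes. Cfd was at 836, 1105 and 1033 CPM after butyrate, with a log2 fold change of -0.29 (SE 0.134, 95% interval -0.57 to -0.02, adjusted p = 0.0622). The Cfd groups overlapped between the lowest control and the highest butyrate library, and the gene was called in 6 of 16 alternative analyses. Retn was at 187, 240 and 190 CPM, with a log2 fold change of -0.25 (95% interval -0.57 to 0.06, adjusted p = 0.159), and its groups overlapped. Rbp4 was at 295, 317 and 279 CPM, below all 3 control libraries, with a log2 fold change of -0.31 (95% interval -1.03 to 0.40, adjusted p = 0.459). Without control library 1, the highest, it was -0.14 (adjusted p = 0.789). Lep was at 1.33, 1.2 and 1.12 CPM, within the control range, with a log2 fold change of 0.32 (95% interval -0.55 to 1.19, adjusted p = 0.534). The Lep value was -0.0039 without control library 1 and 0.82 without control library 2, so it rests on single libraries.

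Butyrate thus called 2 of 6 adipokine genes in adipocytes, both lower, where 61% of all tested genes were called, 30.7% higher and 30.3% lower. With 6 genes this share is not read as a result about them. Of 12 markers of the adipocyte itself, 9 fell and 1 rose under butyrate (median log2 fold change -0.451), and their sum was 15490 to 16650 CPM against 19800 to 20900 CPM in the control. Macrophage markers summed to 145.5 to 155.9 CPM against 173.6 to 187.9 CPM, and 4 endothelial markers to 117.9 to 137.5 CPM against 176.4 to 203.8 CPM, while preadipocyte or fibroblast markers overlapped (5310 to 6844 against 5804 to 6638 CPM). Of the macrophage markers, Csf1r was at 24.41 to 26.92 CPM after butyrate against 47.24 to 49.06 CPM in the control. Ptprc and Fcgr1 were lower too, while Adgre1, Cd68, Itgam and C1qa overlapped the control. The part of these shifts in the fall of Adipoq and Nampt was not tested.

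After βOHB, Adipoq was at 740, 789 and 926 CPM, Cfd at 1002, 1338 and 1435 CPM and Retn at 186, 265 and 309 CPM, all overlapping the control. The log2 fold changes were 0.12 (95% interval -0.11 to 0.35) for Adipoq, 0.05 (-0.22 to 0.33) for Cfd and 0.05 (-0.27 to 0.36) for Retn. Rbp4 was at 358, 365 and 237 CPM, Nampt at 277, 270 and 254 CPM and Lep at 0.556, 1.48 and 1.89 CPM, and these overlapped the control too. Their log2 fold changes were -0.21 (-0.92 to 0.51) for Rbp4, -0.06 (-0.19 to 0.08) for Nampt and 0.42 (-0.45 to 1.28) for Lep. Over 16 alternative analyses the Lep value ran from 0.024 to 0.92, that of Retn from -0.12 to 0.23 and that of Cfd from -0.054 to 0.19. None of the 6 was called by edgeR (lowest adjusted p = 0.843), and 0 had an unadjusted p under 0.05 with edgeR, limma-voom or DESeq2. Across all genes edgeR called 0.00652% in this comparison.

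Set directly against βOHB at the same dose and time, butyrate gave lower Adipoq by 0.62 on the log2 scale (log2 difference -0.62, SE 0.111, 95% interval -0.85 to -0.39, adjusted p = 2.72e-05), with no overlap between the 3 libraries of each. Cfd was lower by the same contrast (log2 difference -0.34, SE 0.134, 95% interval -0.62 to -0.07, adjusted p = 0.0299), but its libraries overlapped. The Cfd call was lost without βOHB library 2 (adjusted p = 0.0962), βOHB library 3 (adjusted p = 0.156) or butyrate library 1 (adjusted p = 0.175). For Retn the difference was -0.30 (95% interval -0.62 to 0.02), for Nampt -0.09 (-0.23 to 0.04), for Rbp4 -0.11 (-0.82 to 0.61) and for Lep -0.10 (-0.94 to 0.75), none of them called. The compounds therefore differed in 2 of 6 genes, where 59.5% of all tested genes differed, and for the other 4 the intervals do not show that they act alike.

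**Figure D2:**
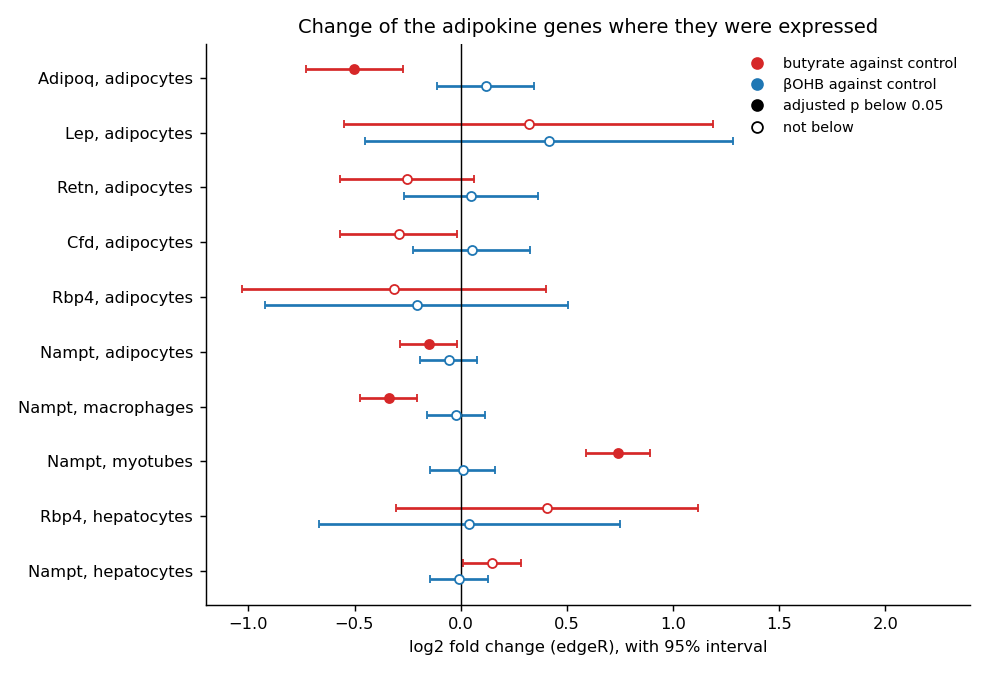
Log2 fold change relative to control within each cell type (horizontal axis, edgeR) with its 95% interval, for butyrate (red) and βOHB (blue), filled where the adjusted p was below 0.05. Rbp4 in myotubes is left out, and the called points are Adipoq in adipocytes (-0.50) and Nampt in adipocytes, macrophages and myotubes (-0.15, -0.34 and 0.74) under butyrate.

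Outside adipocytes, Nampt fell under butyrate in macrophages and rose in myotubes. NAMPT makes nicotinamide mononucleotide, the precursor of NAD, in many cell types. In macrophages Nampt was at 170, 162 and 159 CPM after butyrate against 210, 203 and 208 CPM in the control, with no overlap. It fell by 21% (log2 fold change -0.34, SE 0.0664, adjusted p = 4.65e-05). In the same libraries 7 macrophage markers summed to 2909 to 3126 CPM after butyrate against 4644 to 4715 CPM in the control, and 6 myotube markers to 20.5 to 58.3 CPM against 6.95 to 13.7 CPM. The 12 adipocyte markers summed to 1237 to 1261 CPM against 1456 to 1540 CPM, with Lpl at 1013 to 1047 CPM against 1250 to 1333 CPM. Fabp4, Lipe and Plin4 were lower too, while Pnpla2 (123.8 to 131.5 against 101.5 to 108.3 CPM), Slc2a4 and Gpd1 were higher. Plin1 and Cidec were at most 0.0848 CPM in these libraries. The 6 preadipocyte or fibroblast markers summed to 951.8 to 1426 CPM against 1490 to 1635 CPM, with Col1a1 and Ly6a lower and Thy1 higher. The part of these shifts in the fall was not tested. With library totals alone as the scaling, the median of all genes in this comparison moved to 0.202, and Nampt was at -0.12 (adjusted p = 0.136), which lies 0.32 below that median (-0.32). After βOHB, macrophage Nampt was at 210, 193 and 209 CPM (log2 fold change -0.02, 95% interval -0.16 to 0.11). Butyrate and βOHB differed by -0.32 (95% interval -0.45 to -0.18, adjusted p = 0.000115).

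In myotubes Nampt rose, from 27.6, 26.6 and 28.6 CPM in the control to 47.2, 49.1 and 42.1 CPM after butyrate, an increase of 67.1% (log2 fold change 0.74, SE 0.073, adjusted p = 3.49e-10). After βOHB it was at 28.3, 26.8 and 28.3 CPM, within the control range (log2 fold change 0.01, 95% interval -0.14 to 0.16). Butyrate exceeded βOHB by 0.73 (95% interval 0.58 to 0.88, adjusted p = 4.3e-10). Macrophage markers in the myotube libraries summed to 164.8, 134.3 and 53.1 CPM in the control, 29.6, 18.7 and 54.1 CPM after βOHB and 7.65, 37.6 and 16.1 CPM after butyrate, and myotube markers to 21300 to 26090 CPM in the control and 13710 to 18770 CPM after butyrate. Their part in the rise was not tested.

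In hepatocytes Nampt was at 140, 146 and 126 CPM after butyrate against 120, 125 and 126 CPM, with a log2 fold change of 0.15 that did not pass (SE 0.0677, 95% interval 0.01 to 0.29, adjusted p = 0.0591). Against βOHB, at 134, 113 and 122 CPM, it was higher by 0.16 (95% interval 0.02 to 0.29, adjusted p = 0.0457), a call lost without βOHB library 2 or 3 or butyrate library 1 or 2 (log2 differences 0.096, 0.15, 0.14 and 0.11, adjusted p = 0.258, 0.0931, 0.112 and 0.226). The call was also lost without the filter on low values (log2 difference 0.17, adjusted p = 0.11). The hepatocyte libraries of the 3 groups overlapped. βOHB against control gave -0.01 (95% interval -0.15 to 0.13).

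The difference in response was tested directly. The butyrate effect on Nampt in adipocytes was lower than that in myotubes by 0.89 on the log2 scale (difference -0.89, SE 0.0983, adjusted p = 2.02e-08) and lower than that in hepatocytes by 0.30 (difference -0.30, SE 0.0945, adjusted p = 0.0116). Leaving out adipocyte butyrate library 3 took the hepatocyte difference to -0.23 (adjusted p = 0.0514). Against macrophages the difference was 0.19 (95% interval -0.0020 to 0.38, adjusted p = 0.116) and was not called, except without adipocyte butyrate library 3 (adjusted p = 0.0369). Among all tested genes, 36.8%, 41.4% and 36.6% differed in response between adipocytes and myotubes, hepatocytes and macrophages.

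**Figure D3:**
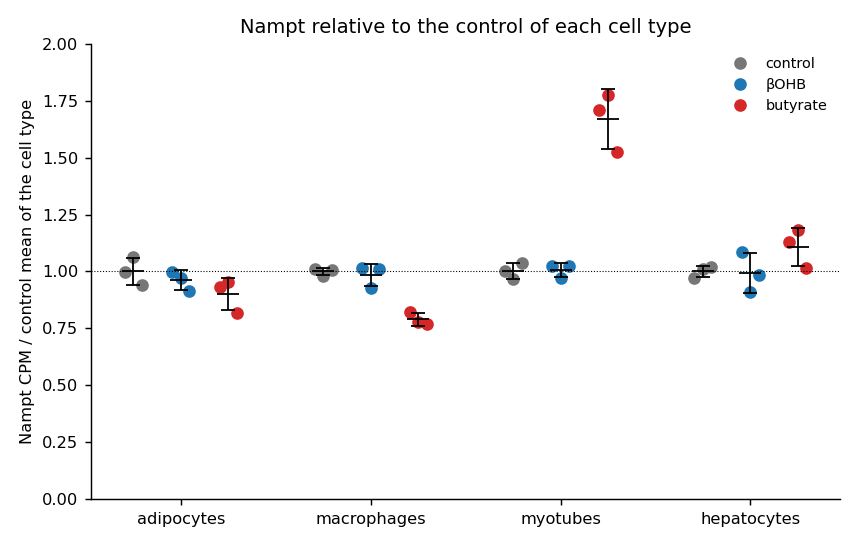
Nampt CPM divided by the control mean of the same cell type (vertical axis, 1 is the control mean), with 3 libraries per group as points and the mean ± SD in black. Butyrate libraries (red) lie below 1 in macrophages and above 1.5 in myotubes, while βOHB libraries (blue) stay around 1.

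Rbp4 was above the control in every butyrate library of hepatocytes and below it in every one of adipocytes, and neither difference passed the edgeR test on the filtered genes. Without the filter on low values both were called, at an adjusted p of 0.000365 in hepatocytes and 0.0042 in adipocytes. Rbp4 was called in 4 of 16 alternative analyses in hepatocytes and in 2 of 16 in adipocytes, and neither limma-voom nor DESeq2 called it in either. Hepatocyte Rbp4 was at 1776, 1702 and 1620 CPM after butyrate, above the control libraries at 1379, 1321 and 1142 CPM and above the βOHB libraries at 1286, 1476 and 1192 CPM. The log2 fold change was 0.41 (SE 0.348, 95% interval -0.30 to 1.12, adjusted p = 0.32) against control and 0.37 (95% interval -0.34 to 1.08, adjusted p = 0.374) against βOHB. βOHB itself gave 0.04 (95% interval -0.67 to 0.75). In this fit the spread of Rbp4 is shared over all 36 libraries, including the myotube libraries described next.

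In myotubes Rbp4 was at 0.0459, 0.044 and 0 CPM in the control, at 0.0459, 0 and 0.621 CPM after βOHB and at 1.14, 23.0 and 4.47 CPM after butyrate. The butyrate libraries held 697 Rbp4 counts and the control libraries 2, a ratio of 327 with an exact counting interval of 90.2 to 2710 (edgeR adjusted p = 3.93e-07), and against the 15 counts after βOHB the ratio was 43.3 (26.1 to 77.9, edgeR adjusted p = 1.49e-06). Butyrate library 2 held 569 of the 697 counts and βOHB library 3 held 14 of the 15. Without butyrate library 2 the Rbp4 log2 fold change went from 8.08 to 6.27 against control and from 5.39 to 3.58 against βOHB, and without βOHB library 3 the latter was 8.40. The same libraries carried hepatocyte transcripts. The sum of 6 hepatocyte markers was 1.24, 0.352 and 1.36 CPM in the myotube controls, where Apoa1, Serpina1a and Cyp2e1 were at 0, then 0.689, 0.622 and 28.6 CPM after βOHB, and 39.0, 699 and 161 CPM after butyrate, with all 6 detected in each butyrate library. Albumin alone was at 23.5, 432 and 95.3 CPM in the butyrate myotubes.

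The proportion of Rbp4 to these markers was close to that in hepatocytes. Of the counts summed over Rbp4 and the 6 markers, Rbp4 made up 2.84% (exact 95% interval 1.89 to 4.07), 3.19% (2.94 to 3.46) and 2.71% (2.21 to 3.28) in the butyrate myotubes and 2.12% (1.17 to 3.54) in βOHB library 3. In the 9 hepatocyte libraries the share was 2.4% to 3.24%. Relative to hepatocytes after butyrate, the markers of the butyrate myotubes stood at 0.0745%, 1.33% and 0.307%. At these shares the hepatocyte Rbp4 level amounts to 1.27, 22.7 and 5.22 CPM, next to the measured 1.14, 23.0 and 4.47 CPM. The same calculation gives 0.102, 1.83 and 0.421 CPM for Nampt, of 47.2, 49.1 and 42.1 CPM measured. The source of the Rbp4 and hepatocyte transcripts in the myotube libraries was not tested. In adipocytes, where Rbp4 was at 237 to 453 CPM, the markers summed to 15.0 to 44.3 CPM and albumin was at most 0.0422 CPM. Nearly all of that sum was Cyp2e1, at 14.89 to 44.15 CPM.

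**Figure D4:**
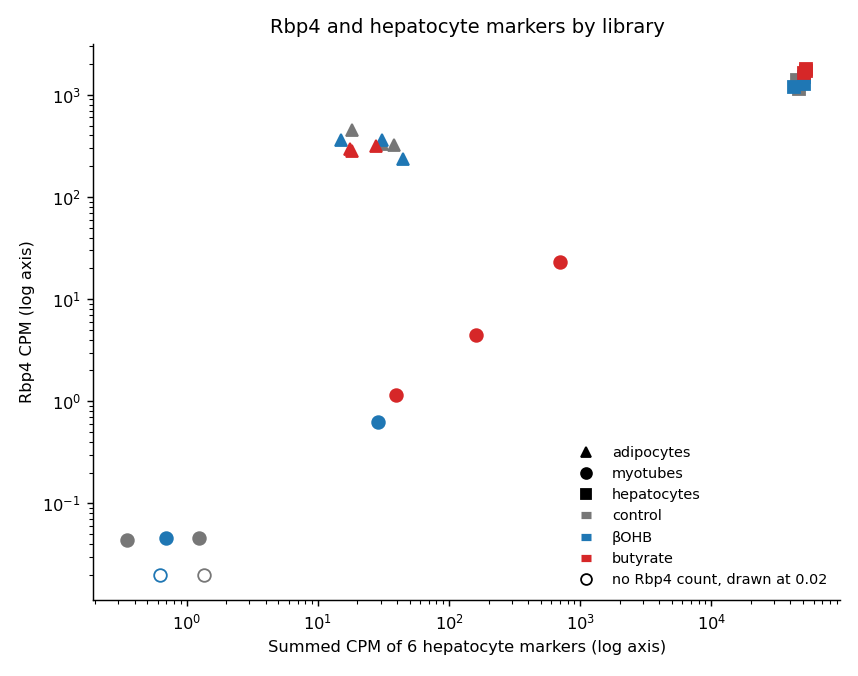
Rbp4 CPM against the summed CPM of 6 hepatocyte markers in the adipocyte (triangles), myotube (circles) and hepatocyte (squares) libraries, both on log axes and coloured by treatment, with 2 libraries without an Rbp4 count drawn open at 0.02. The 4 myotube libraries with markers at 28.6 to 699 CPM lie between the other myotube libraries and the hepatocytes, while adipocytes lie apart. In adipocytes the marker sum is nearly all Cyp2e1.

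An analysis without these 4 myotube libraries, added after seeing the data, left the Rbp4 differences about as they were and narrowed their error. Under butyrate, hepatocyte Rbp4 was higher by 0.44 (SE 0.121, adjusted p = 0.00215) and adipocyte Rbp4 was lower, at -0.31 (SE 0.122, adjusted p = 0.0277). With the 4 kept, the adipocyte Rbp4 value was -0.14 without control library 1. The difference between these responses, adipocytes minus hepatocytes, was -0.72 (SE 0.493, adjusted p = 0.258) with all libraries and -0.75 (SE 0.172, adjusted p = 0.000685) without the 4. In the hepatocyte libraries 6 hepatocyte markers summed to 51120 to 53040 CPM after butyrate against 44760 to 48010 CPM in the control. Alb (32800 to 35190 against 27340 to 29210 CPM), Apob and Fgb were higher. Apoa1 (4349 to 4860 against 5549 to 5633 CPM) and Serpina1a were lower, and Cyp2e1 overlapped. The 4 endothelial markers summed to 22.0 to 24.5 CPM against 66.1 to 72.3 CPM. The 6 myotube markers summed to 42.8 to 47.7 CPM against 27.0 to 27.2 CPM. Of these only Acta1 was higher (38.62 to 43.61 against 17.15 to 19.25 CPM), and Myh3, Ckm, Myog, Tnnt3 and Des were lower. The part of these markers in the Rbp4 difference was not tested. Fitting each cell type alone called Rbp4 in hepatocytes (adjusted p = 0.000169) but not in adipocytes (adjusted p = 0.117). Nampt in hepatocytes was called without the 4 libraries as well (log2 fold change 0.18, adjusted p = 0.0205), as was Cfd in adipocytes (-0.29, adjusted p = 0.0423).

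Nampt, above 1 CPM in every library, was called under butyrate in macrophages and myotubes and not in hepatocytes (called there in 7 of 16 alternatives, adjusted p 0.00718 to 0.268), where 65%, 66.5% and 63.5% of all genes were called. Against βOHB it was called in all 3, where 64.7%, 66% and 63.5% of all genes differed. Among genes with a mean of at least 1 CPM in either group, βOHB against control called 0 of 1 in macrophages, 0 of 1 in myotubes and 0 of 2 in hepatocytes, with 0 at an unadjusted p under 0.05 by edgeR, limma-voom or DESeq2, and across all genes edgeR called 0%, 2.91% and 0.00652%. In myotubes Rbp4 reached 1 CPM only after butyrate, so its call there is not counted.

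Genes of 7 lists around the 6 were counted in adipocytes under butyrate, where 61% of all tested genes were called. Of 22 tested other adipokines, 2 rose, 8 fell and 12 were not called (median log2 fold change -0.204, against 0.00 over all tested genes). Il6, an inflammatory cytokine, fell from 6.35 ± 0.833 CPM to 1.01 ± 0.282 CPM (SD, n = 3, log2 fold change -2.65, adjusted p = 8.22e-11). Grem1, a BMP antagonist, went from 13.8 ± 2.45 to 2.83 ± 1.26 CPM (-2.31, adjusted p = 3.4e-07), and Igf1, a growth factor, from 183 ± 16.8 to 82.0 ± 3.12 CPM (-1.16, adjusted p = 1.71e-11). After βOHB these 3 were at 6.54 ± 0.989, 10.7 ± 4.69 and 217 ± 23.6 CPM.

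Among 9 tested receptors of the adipokines and of the complement fragments downstream of adipsin, 1 rose, 4 fell and 4 were not called (median -0.673), beside the 61% called over all genes. With RLE scaling or library totals 3 fell. Adipor2, an adiponectin receptor, fell from 993 ± 49.8 to 596 ± 16.3 CPM (-0.74, adjusted p = 3.8e-13). C3ar1 and C5ar1, receptors of complement fragments that macrophages express, fell from 41.6 ± 1.92 to 9.42 ± 1.14 CPM (-2.14, adjusted p = 2.16e-10) and from 21.5 ± 1.28 to 8.48 ± 0.803 CPM (-1.34, adjusted p = 1.96e-07). The sum of the macrophage markers given above was also lower in these cultures, but Adgre1, Cd68, Itgam and C1qa overlapped the control. Their part was not tested.

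Of 3 tested genes of adiponectin assembly in the endoplasmic reticulum and beyond, P4hb, a protein disulfide isomerase, rose from 952 ± 107 to 1276 ± 54.7 CPM (0.42, adjusted p = 0.000154). Gstk1, also known as DsbA-L, rose from 20.0 ± 1.26 to 26.6 ± 2.08 CPM (0.42, adjusted p = 0.000204), and Erp44, a chaperone that retains adiponectin, fell from 86.8 ± 4.10 to 78.5 ± 0.968 CPM (-0.14, adjusted p = 0.0314). The fall of Erp44 was not called with RLE scaling or library totals alone. Of 8 genes of the alternative complement pathway only Masp1, which encodes a protease that activates pro-factor D, was called, from 4.12 ± 0.174 to 2.68 ± 0.229 CPM (-0.62, adjusted p = 0.0119), and the list median was -0.023.

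In retinol transport and use, 2 of 6 tested genes rose and 2 fell (median -0.039). Dhrs3, a retinal reductase, fell from 54.5 ± 5.13 to 28.7 ± 2.90 CPM (-0.93, adjusted p = 3e-10), and Rbp7 fell from 2.56 ± 0.444 to 0.830 ± 0.392 CPM (-1.59, adjusted p = 0.000143). In NAD synthesis and use, 5 of 14 rose, 4 fell and 5 were not called (median 0.139), close to the 61% called over all genes. Nmnat1, the nuclear enzyme that acts on the product of NAMPT, fell from 11.8 ± 0.512 to 3.65 ± 0.439 CPM (-1.70, adjusted p = 2.04e-14). Nmnat2, its cytosolic counterpart, rose from 4.77 ± 1.62 to 12.9 ± 1.61 CPM (1.44, adjusted p = 4.29e-09), and Nmrk1, a nicotinamide riboside kinase, rose from 4.14 ± 0.236 to 11.0 ± 0.468 CPM (1.41, adjusted p = 1.26e-13).

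Of 9 transcription factors of fat cells, 6 fell, 1 rose and 2 were not called (median -0.467), where 30.3% of all tested genes fell and 30.7% rose. Cebpd fell from 24.9 ± 1.95 to 6.31 ± 0.503 CPM (-1.98, adjusted p = 4.25e-14), Nr1h3, the liver X receptor alpha gene, from 45.5 ± 1.44 to 18.9 ± 0.395 CPM (-1.27, adjusted p = 2.26e-12), and Pparg, the gene of the adipogenic nuclear receptor, from 263 ± 2.57 to 136 ± 8.63 CPM (-0.95, adjusted p = 2.36e-13). The 3 other resistin family genes did not pass the filter. Under βOHB, edgeR called 0 of the 71 tested genes of these lists in adipocytes, with 5 at an unadjusted p under 0.05. By limma-voom 0 were called and 6 had an unadjusted p under 0.05, and by DESeq2 these counts were 0 and 5.

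**Figure D5:**
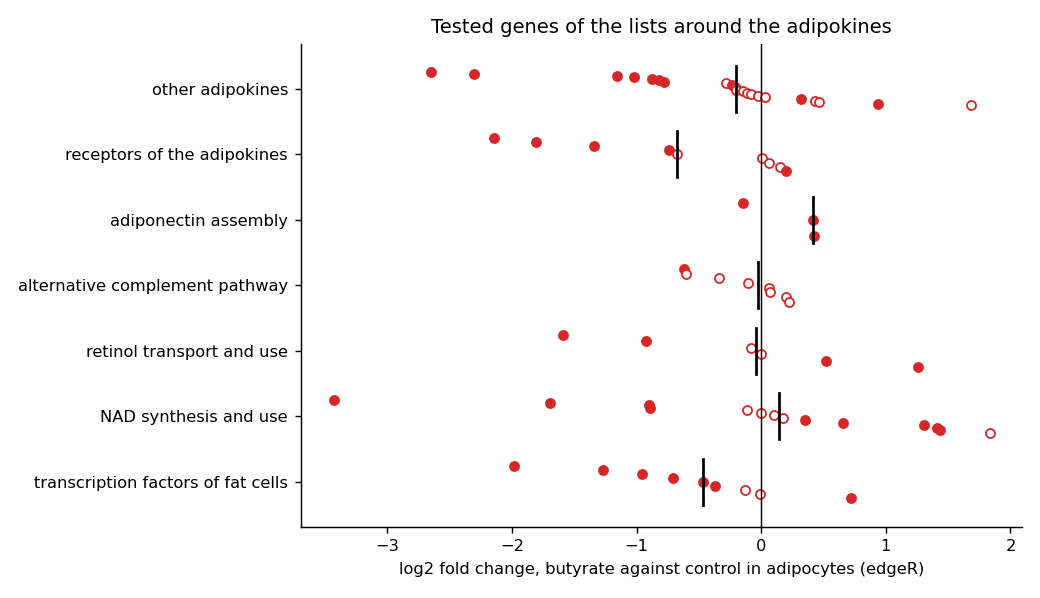
Log2 fold change under butyrate in adipocytes (horizontal axis, edgeR) of every tested gene of 7 lists, filled where the adjusted p was below 0.05, with the list median as a black line. The medians lie between -0.673 for the receptors and 0.415 for adiponectin assembly.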

How the data were processed

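RNA-seq was measured in 36 libraries, 3 in each of 12 groups. The authors quantified reads with Salmon 1.2.1 on the GRCm38.p6 transcriptome and deposited estimated counts per gene, summarised with tximport. Their methods describe scaling by transcript length and library size at that step. Column totals still differ between libraries, so the values were scaled to library size here, and whether a length scaling is in them was not tested. Groups follow the titles and treatment labels, although another label field of the butyrate samples also carries bOHB. After rounding to whole numbers, edgeR 4.0.16 was applied (quasi-likelihood F test, TMM scaling, 1 model with a mean per group, R 4.3.3) over 15340 genes with CPM above 1 in 6 or more libraries, with Benjamini-Hochberg adjustment over all of them and a threshold of 0.05. Every adjusted p is from this test unless limma-voom (3.58.1) or DESeq2 (1.42.0) is named. Depth was 18366289 to 23221473 counts per library (median 22177562), and intervals on counts (exact, 95%) and floors (3 counts) cover counting error only. Alternatives were RLE scaling, library totals alone, other filters, limma-voom, DESeq2, a replicate block, only the cell types compared, each library left out, and, chosen after seeing the data, the 4 myotube libraries with hepatocyte markers above 10 CPM left out. Replicates differed by more than sampling noise (chi-square per gene 2.68 to 41.7), so none was a duplicate. The edgeR step was tested on simulated data with known changes. The genes and lists were chosen with earlier results of these data known. Genes named from each list are the called ones with the largest changes, at most 3 a list and with a mean of at least 1 CPM in control or butyrate adipocytes (1 such gene is not reported here), and likeness is Pearson's r of log2 CPM over all libraries. Promoter sequences are RefSeq's (GRCm38.p6).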

Additional observations from a re-analysis of the deposited data

Results flagged for a closer look

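A test of the difference between cell types marked 3 responses to butyrate. The Rbp4 response was lower in adipocytes than in myotubes (log2 difference -8.39, SE 1.27, edgeR adjusted p = 4.28e-06). It rests on 2 Rbp4 counts in the myotube controls and on butyrate myotube libraries that also held hepatocyte markers at 39.0, 699 and 161 CPM. The Nampt response was lower in adipocytes than in myotubes (-0.89, SE 0.0983, edgeR adjusted p = 2.02e-08) and lower than in hepatocytes (-0.30, SE 0.0945, edgeR adjusted p = 0.0116).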

How the results depend on the processing

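Adipoq was called lower under butyrate in adipocytes in 16 of 16 alternatives (log2 fold change -0.57 to -0.41). The count of adipokine genes called there (2) was 1 with RLE scaling, library totals, more than 20 counts, DESeq2 or adipocytes alone, 5 with no filter, 4 with limma-voom or without the 4 myotube libraries, and 1 to 3 with 1 library left out. In macrophages 1 call became 0 with library totals, against control and against βOHB. In hepatocytes 0 calls became 1 with RLE scaling, library totals, no filter, more than 20 counts, filterByExpr, DESeq2 or hepatocytes alone, 2 without the 4 myotube libraries, and 0 to 1 with 1 library left out. Against βOHB, 2 calls in adipocytes became 1 with library totals or adipocytes alone, 3 with no filter or limma-voom (Retn added) and 1 to 3 with 1 library left out, and 1 call in hepatocytes became 2 with hepatocytes alone or without the 4 myotube libraries and 0 to 1 with 1 library left out. With no filter the hepatocyte call was of Rbp4 (adjusted p = 0.00164) in place of Nampt (adjusted p = 0.11). For the response in adipocytes minus hepatocytes, 1 call became 2 with no filter, with these cell types alone or without the 4 myotube libraries, and 0 to 1 with 1 library left out, and minus macrophages 0 became 0 to 1. The causes were not tested.

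The deviations of same-numbered libraries correlated weakly (-0.26 to 0.27 over 36 pairs, and -0.11 to 0.22 over the 9 pairs of adipocytes). Such values cannot show that these libraries shared no culture or batch, and no label ties the numbers. Library 1 was the lowest for Adipoq, Cfd and Retn in every adipocyte group. A replicate block gave 3 calls in adipocytes (Cfd added, adjusted p = 0.0128), 1 in hepatocytes (Rbp4, adjusted p = 0.0353) and 2 for adipocytes minus hepatocytes. Of 916 fold changes under alternatives, 25 changed sign, none of them called in either fit. Lep had 68 to 83 counts per adipocyte group, with 11, 36 and 21 in the control libraries, so both depth and the spread between libraries limit it.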
